A study of Mus musculus with 17 samples.

Results

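Metabotropic glutamate receptors are G protein-coupled receptors through which the transmitter glutamate adjusts, rather than carries, fast synaptic signalling. The 6 genes described here were the rows of the count table whose Ensembl identifiers mapped to Grm2, Grm3, Grm4, Grm5, Grm7 and Grm8, that is 6 of the 39017 rows deposited, and other genes of the family were not analysed here. All 6 passed the filter on low counts that left 22242 genes for testing. The receptors fall into groups by their coupling. Grm5 is a group I receptor that acts through Gq and phospholipase C, sits mainly at the rim of postsynaptic sites and is linked there to Homer and Shank scaffolds. Grm2 and Grm3 are group II receptors and Grm4, Grm7 and Grm8 are group III receptors. Both of these groups act through Gi/o proteins, lower cyclic AMP, open inwardly rectifying potassium channels and close calcium channels, and many of them sit on axon terminals where they restrain transmitter release. Grm3 is also made by cortical astrocytes.

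The RNA came from cortex of NSE-Cre:RiboTag mice on the C57BL/6J background, in which rNSEII-Cre, always inherited from the mother, switches on an HA-tagged form of the ribosomal protein Rpl22 in neurons, and RNA bound to tagged ribosomes was pulled down with an antibody to HA. Control mice carried Cre and RiboTag as well. Chronic experimental autoimmune encephalomyelitis (EAE), a mouse model of multiple sclerosis, was induced in adult mice with the myelin peptide MOG 35–55 in Complete Freund's Adjuvant and with pertussis toxin, and healthy age- and sex-matched mice were the controls. There were 17 libraries, each from a single mouse: 9 from males (4 control, 5 EAE) and 8 from females (4 control, 4 EAE). The study asked how EAE changed neuronal gene expression in each sex. The values are averages over all tagged cells, and fewer cells of a type and less RNA per cell cannot be told apart. By staining, the paper reports the tag in cells with the neuron marker NeuN, and no significant overlap with astrocytes, oligodendrocytes or microglia. In the RNA pulled down, it reports neuronal genes enriched, and the astrocyte, oligodendrocyte and microglia genes it examined not enriched. Its staining also showed no significant overlap with parvalbumin interneurons. Tagged cells may thus not cover every class of neuron.

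Total counts ranged from 66155142 to 98433383 per library. Summed levels of the 8 neuron markers were 10508 to 13187 CPM (read counts corrected for library size and composition), but those of the 12 astrocyte markers (5880 to 11204 CPM) and the 12 oligodendrocyte markers (6686 to 9396 CPM) were also high. The 9 microglia markers reported here summed to 31.1 to 107 CPM. Genes that mark astrocytes and oligodendrocytes were thus well represented in these libraries, and those that mark microglia were scarce. Enrichment over RNA of the whole cortex was not measured here. Male control 4 and female control 2 stood apart from the other libraries, at -59.1 and -45.3 on the first principal component of 13470 genes (68% of the variance) against -24.9 to 39.4 in the rest. Male control 4 had the lowest value of the 4 male controls for 6 of 6 receptors, and the lowest of all 17 libraries for 5 of them.

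The genes lie on 5 chromosomes of the mm10 (GRCm38) genome and differ widely in size. Grm2 is the most compact, on the minus strand of chromosome 9 (106643095 to 106656082, 13 kb). Grm3 spans 240 kb of chromosome 5 (9485541 to 9725170, minus strand) and Grm4 spans 99 kb of chromosome 17 (27422387 to 27521403, minus strand). Grm5 spans 551 kb of chromosome 7 (87584168 to 88134907, plus strand). Grm7 spans 922 kb of chromosome 6 (110645581 to 111567230, plus strand). Grm8 lies on the same chromosome and spans 860 kb (27275119 to 28135178, minus strand). Reads were counted at the gene level, so splice forms were not separated. An antisense gene, Gm20387, shares 130 exon bases with Grm7 and had 119 to 339 counts per library, against 653 to 2964 for Grm7. The library kit keeps strand but the strand setting of the counting is not given in the sources used here, so reads from the shared bases may belong to either gene. Another annotated antisense gene, Gm28111, shares 470 exon bases with Grm2 and was not analysed here.

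The stretch around the first annotated start site was in the reference table (RefSeq, GRCm38.p6, 300 bases that reach from upstream of the start to just past it) for 4 of the 6 genes. These starts are those of RefSeq, while the gene spans above are from GENCODE. The regions of Grm3 and Grm7 lie wholly upstream of the GENCODE spans. It is printed here for Grm7, Grm8 and Grm2, whose RNA was higher in EAE male mice, and for Grm3, whose RNA was not called different, so that their start regions can be set side by side. Sequences run 5′ to 3′ on the gene's strand, and capitals mark the GC box GGGCGG, the letters to which Sp family factors can bind.
Grm7, chr6:110645262-110645561, plus strand: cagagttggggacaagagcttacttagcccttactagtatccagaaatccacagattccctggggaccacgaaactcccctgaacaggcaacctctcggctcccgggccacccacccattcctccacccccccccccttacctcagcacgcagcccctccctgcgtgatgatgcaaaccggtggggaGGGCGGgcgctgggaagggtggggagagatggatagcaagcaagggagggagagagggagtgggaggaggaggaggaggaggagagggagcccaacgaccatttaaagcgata
Grm8, chr6:28135097-28135396, minus strand: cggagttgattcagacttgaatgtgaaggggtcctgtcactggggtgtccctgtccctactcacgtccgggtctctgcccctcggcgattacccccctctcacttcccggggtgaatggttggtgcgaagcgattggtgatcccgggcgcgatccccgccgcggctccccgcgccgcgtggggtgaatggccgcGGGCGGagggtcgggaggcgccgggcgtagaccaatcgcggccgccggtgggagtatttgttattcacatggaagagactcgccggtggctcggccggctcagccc
Grm2, chr9:106656060-106656359, minus strand: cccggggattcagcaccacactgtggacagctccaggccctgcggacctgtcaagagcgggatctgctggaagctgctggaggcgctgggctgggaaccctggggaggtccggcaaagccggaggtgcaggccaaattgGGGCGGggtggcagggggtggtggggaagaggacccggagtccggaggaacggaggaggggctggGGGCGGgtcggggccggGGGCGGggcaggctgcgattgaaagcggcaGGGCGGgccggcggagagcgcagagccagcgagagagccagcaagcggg
Grm3, chr5:9725303-9725602, minus strand: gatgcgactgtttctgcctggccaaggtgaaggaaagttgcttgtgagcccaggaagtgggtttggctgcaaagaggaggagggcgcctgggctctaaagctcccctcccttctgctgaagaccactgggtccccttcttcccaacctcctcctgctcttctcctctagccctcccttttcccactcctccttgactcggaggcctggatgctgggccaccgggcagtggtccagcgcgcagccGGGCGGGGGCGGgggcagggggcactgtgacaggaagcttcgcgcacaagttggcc
All 4 start regions were richer in G and C (72% for Grm2, 67% for Grm8, 63.7% for Grm3 and 61% for Grm7) than the median of 52.7% over 27025 mouse start regions of the same length. Grm8 had 33 CG pairs and Grm2 had 22, while Grm3 had 11 and Grm7 had 10, against a median of 7. On either strand the GC box GGGCGG occurred 4 times in Grm2, 2 times in Grm3 and 1 time each in Grm7 and Grm8, and it occurred in 35.9% of all start regions. Neither the cyclic AMP response element TGACGTCA (1.88% of all start regions, either strand) nor the TATA box TATAAA (14.2%, either strand) was found in these 4. Further annotated starts of Grm8 had 54% and 43.3% G and C and no GC box, and another start of Grm7 had 66.7%. Which start was used in these mice was not tested.

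To compare levels between genes, CPM were divided by the length of all exons of a gene. Over the 8 control mice of both sexes Grm3 had the highest level per kb at 16.4 ± 2.37 CPM per kb (SD, n = 8), followed by Grm2 at 10.5 ± 2.01, Grm4 at 5.5 ± 1.04, Grm5 at 5.11 ± 1.04, Grm7 at 2.49 ± 0.72 and Grm8 at 0.683 ± 0.159 CPM per kb. Astrocytes also make Grm3, and astrocyte markers were high in these libraries. Which cells gave the Grm3 reads was not tested. Before division by length Grm3 was not the highest, with means of 48.9 CPM in control males and 51 in control females. Those of Grm2 were 49.6 and 53.2 CPM, and those of Grm5 were 48.6 and 56.2 CPM. The ranges of Grm3 and Grm2 overlapped across mice, although Grm3 was the higher of the pair in 8 of 8 libraries. Grm4 and Grm5 overlapped and were not separated beyond their spread, with Grm4 higher in 7 of 8 libraries. Grm2 against Grm4, Grm5 against Grm7, and Grm7 against Grm8 did not overlap on this scale. In EAE male mice Grm5 stood above Grm4 in 5 of 5 libraries (8.83 ± 1.49 against 6.65 ± 0.893 CPM per kb, SD, n = 5), and the ranges of these levels still overlapped. In EAE female mice Grm5 stood above Grm4 in 3 of 4 libraries (7.65 ± 2.44 against 6.18 ± 1.16 CPM per kb, SD, n = 4), also with overlap. With the length of the longest transcript instead, the levels of Grm4, Grm5, Grm7 and Grm8 in control mice were 7.14, 6.51, 3.47 and 1.41 CPM per kb. The order was the same, but all neighbours in it overlapped on that scale, including Grm7 (lowest 1.97) and Grm8 (highest 2.06). Grm3 has 1 annotated transcript, so both lengths are 3.05 kb and the change of length left its level as it was.

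**Figure D1:**
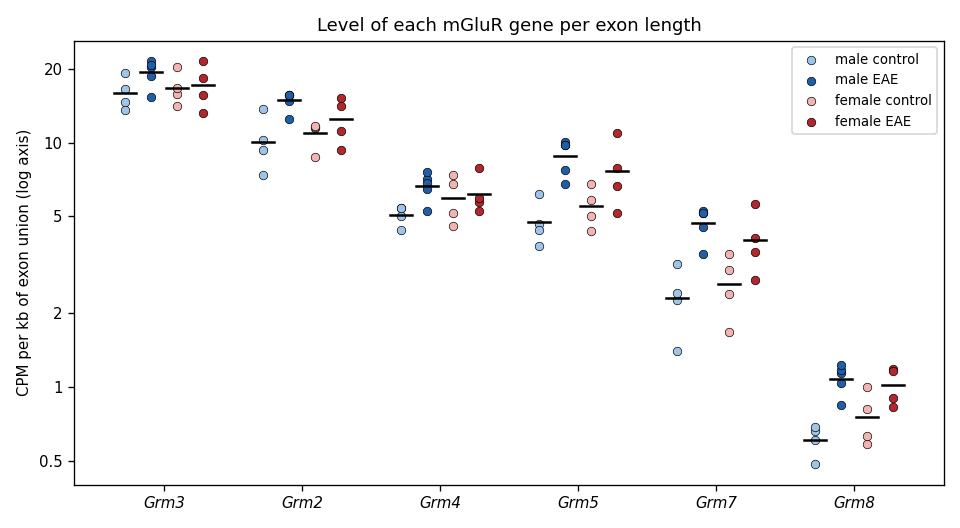
Level of each receptor gene in CPM per kb of exon, on a log axis, in the 17 libraries (points) with group means (black lines). Grm3 and Grm2 lie at the top and Grm8 lies lowest, from 0.483 to 1 CPM per kb in control mice.

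In EAE male mice compared to control male mice, 5 of 6 receptors were higher, with edgeR's quasi-likelihood test at a false discovery rate of 0.1 and a log2 fold change beyond 0.25. Grm7, Grm5 and Grm8 rose the most, with every EAE male library above every control male library, and Grm2 and Grm4 rose less. Grm3 was not called. The male comparison moved many genes, since 19.2% of the 22242 genes tested were called higher and 39.6% were called in either direction. The median log2 fold change of the 6 receptors was 0.69, against 0.02 over all genes.

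Grm5, the group I receptor, was at 47.4, 63.3, 45.1 and 38.6 CPM in the 4 control male libraries. It was at 79.2, 104, 69.3, 100 and 99.9 CPM in the 5 EAE male libraries. The groups did not overlap, and 3 EAE libraries lay near 100 CPM. The log2 fold change was 0.90 (SE 0.195, 95% confidence interval 0.49 to 1.31, 1.86-fold, edgeR adjusted p = 0.00543), and the exact two-sided permutation test gave p = 0.00794, the smallest that 126 arrangements allow. With 10.1% of all genes tested showing every EAE male library above every control male library, the separation of Grm5 was shared by many genes.

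Among the group II receptors, Grm2, which acts as a brake on glutamate release at cortical terminals, was at 45.6, 66.9, 49.8 and 36.1 CPM in control males. It was at 72.6, 76.7, 61.4, 76.1 and 76.7 CPM in EAE males. The groups overlapped through EAE male 3 and control male 2, and 4 of 5 EAE libraries lay above every control. Grm2 rose by 0.55 on the log2 scale (SE 0.16, 95% confidence interval 0.22 to 0.89, edgeR adjusted p = 0.0144, exact permutation p = 0.0159). Grm3 was at 44.9, 58.7, 50.7 and 41.4 CPM in control males and at 57, 65.9, 47.0, 62.3 and 63.4 CPM in EAE males. Its groups overlapped in the middle of their range, and 3 of 5 EAE libraries lay above every control. The log2 fold change of Grm3 was 0.27 (SE 0.143, 95% confidence interval -0.03 to 0.57), with an edgeR adjusted p of 0.15 and an exact permutation p of 0.0952.

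The group III receptors are presynaptic, and Grm7 is known for its place within the active zone. Grm7 was at 13.4, 18.8, 14.2 and 8.3 CPM in control males and at 26.5, 30.2, 20.7, 30.8 and 30.4 CPM in EAE males. It showed the largest of the 6 changes, 1.02 on the log2 scale (SE 0.237, 95% confidence interval 0.52 to 1.52, 2.03-fold, edgeR adjusted p = 0.00607), and its groups did not overlap (exact permutation p = 0.00794). The antisense gene Gm20387 was also higher in EAE males, by 0.62 on the log2 scale (edgeR adjusted p = 0.0182), and its part in the value of Grm7 was not tested. Grm8, the least abundant, was at 5.99, 6.56, 6.79 and 4.78 CPM in control males and at 10.3, 11.2, 8.33, 11.5 and 12.1 CPM in EAE males. Its groups did not overlap, with a log2 fold change of 0.83 (SE 0.167, 95% confidence interval 0.48 to 1.18, edgeR adjusted p = 0.00541, exact permutation p = 0.00794). Grm4 was at 29.9, 32.2, 32.2 and 26.2 CPM in control males and at 42.3, 41.0, 31.3, 45.5 and 38.6 CPM in EAE males. The lowest EAE library, male 3, fell within the controls and the other 4 lay above them, and Grm4 rose by 0.40 on the log2 scale (SE 0.147, 95% confidence interval 0.09 to 0.71, edgeR adjusted p = 0.0431, exact permutation p = 0.0317). EAE male 3 was the lowest of the 5 EAE males for 6 of 6 receptors.

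**Figure D2:**
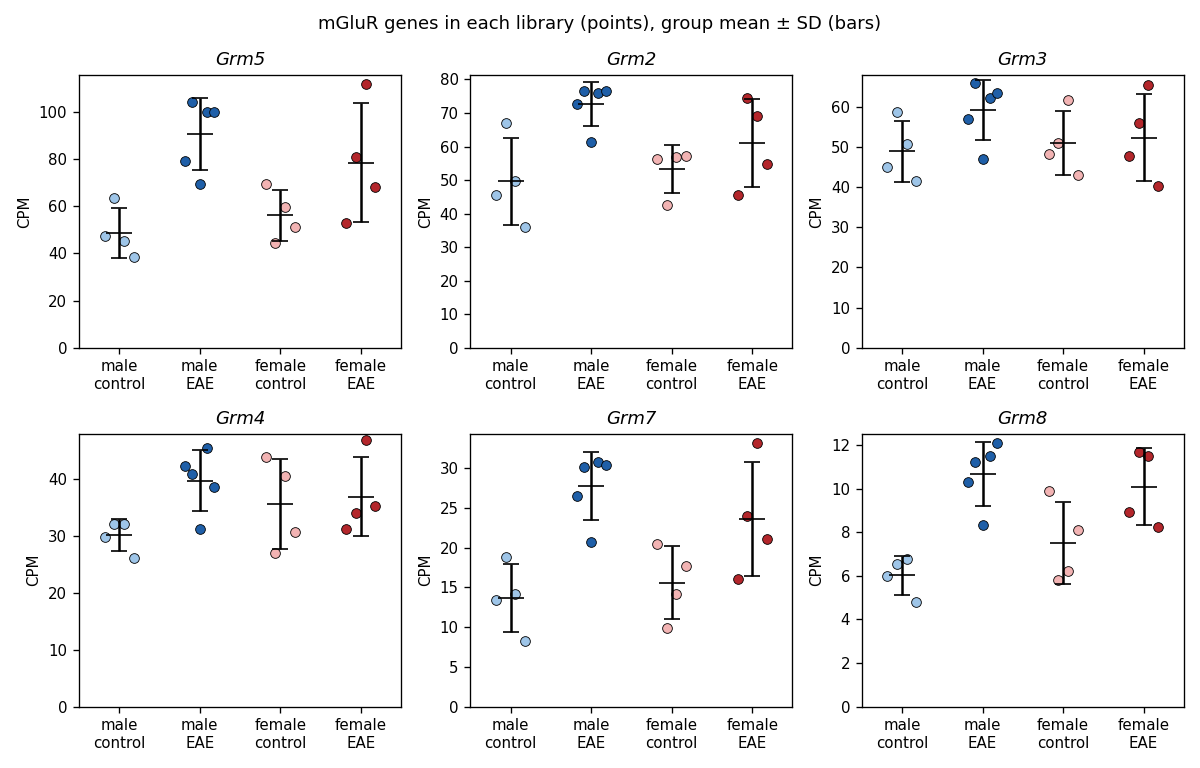
CPM of each receptor gene in every library (points), with group means and SD (black bars), by sex and condition. In males the EAE points of Grm5, Grm7 and Grm8 lie above all control points, and in females the groups overlap for all 6 genes.

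The call of Grm4 was lost without control male 4 (edgeR adjusted p = 0.124) or EAE male 4 (0.105), while Grm3 was called without control male 2 (0.0668) or EAE male 3 (0.0681). When male control 4 and female control 2 were both left out, the 5 calls remained, with log2 fold changes of 0.82 for Grm5, 0.44 for Grm2, 0.36 for Grm4, 0.86 for Grm7 and 0.75 for Grm8. Over all genes 6463 were then called in males, against 8813 with all 17 libraries. Several measures of the libraries moved with EAE in males. The summed astrocyte markers were 8273 to 11204 CPM in control males and 6302 to 7584 CPM in EAE males, with no overlap, and 8 of 12 were called lower; none of the 12 was at 0 in any library, and their part in the receptor values was not tested. The slope of a library's values on log2 exon length ran from -0.176 to 0.025 in control males and from 0.0269 to 0.141 in EAE males (exact permutation p = 0.00794), so longer genes had relatively more counts in EAE males. Receptor levels followed this slope over the 17 libraries, with r from 0.76 for Grm3 to 0.95 for Grm2 and Grm7, as a description over libraries that share their depth and composition. With each library's length trend removed, the log2 fold changes in males were 0.66 for Grm5, 0.54 for Grm2, 0.40 for Grm3, 0.32 for Grm4, 0.95 for Grm7 and 0.60 for Grm8, and all 6 were called (edgeR adjusted p = 0.006 to 0.0675). That fit called 8218 of all genes in males. With 1 surrogate variable estimated from the data as a covariate, none of the 6 was called, and the values were 0.23, 0.01, -0.06, -0.01, 0.12 and 0.30 in the same order. Over all genes the fit with this variable called 7 in males, against 8813 without it. That variable itself separated the groups in males, from -0.0334 to 0.544 in controls and from -0.332 to -0.0614 in EAE.

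**Figure D3:**
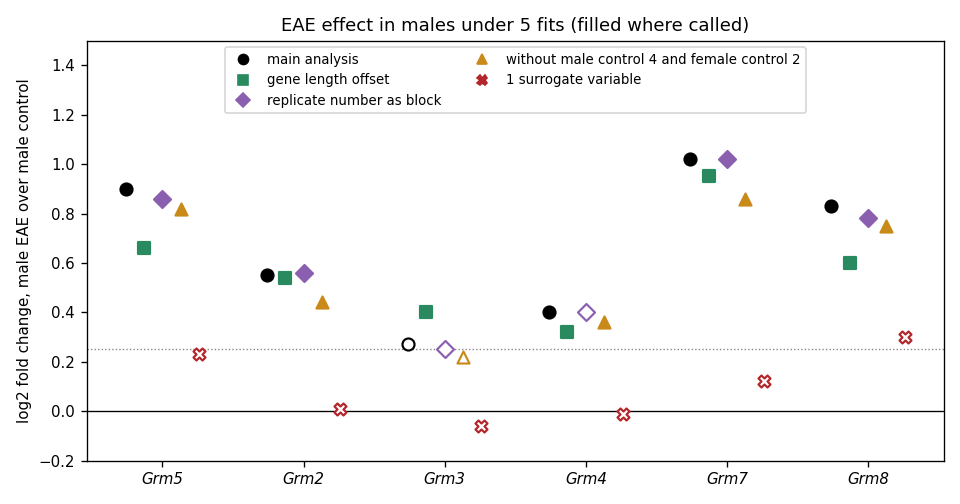
Log2 fold change of each receptor in EAE male mice over control male mice under 5 fits, filled where called and open where not, with a dotted line at 0.25. Values with the gene length offset stay between 0.32 and 0.95, and those with 1 surrogate variable lie between -0.06 and 0.30.

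In females with EAE, compared to their healthy controls, none of the 6 receptors was called, and all 6 differences were above 0. Of all genes tested, 0.0584% were called in this comparison. Grm7, Grm5 and Grm8 again had the largest differences, at 0.60, 0.48 and 0.42 on the log2 scale, and these 3 passed an unadjusted p of 0.05 in edgeR's test, as did 19.8% of all genes. Without EAE female 4 they were 0.37, 0.24 and 0.34, so that Grm5 lay below Grm8, and without EAE females 1, 3 or 5 they were 0.59 to 0.72, 0.47 to 0.61 and 0.34 to 0.51. The median over the 6 receptors was 0.31, against 0.00 over all genes. DESeq2, limma voom and edgeR's likelihood ratio test also called 0 of the 6. Over all genes limma voom called 0 and the likelihood ratio test called 2.87%. DESeq2 called 8.83% of the genes to which it gave an adjusted p.

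Grm5 was at 69.6, 44.4, 59.5 and 51.3 CPM in control females and at 52.8, 80.7, 112 and 68.3 CPM in EAE females. EAE female 4 was the highest of all 17 libraries, EAE females 1 and 5 lay below the highest control, and 2 of 4 EAE libraries lay above every control. The 95% confidence interval of the difference was 0.06 to 0.90 on the log2 scale (edgeR adjusted p = 0.218, exact permutation p = 0.143). Grm7 was at 20.5, 9.92, 14.2 and 17.7 CPM in control females and at 16.1, 24.0, 33.1 and 21.1 CPM in EAE females. Here 3 of 4 EAE libraries lay above every control, and the interval was 0.08 to 1.11 (edgeR adjusted p = 0.213, exact permutation p = 0.114). Grm8 was at 9.9, 5.79, 6.22 and 8.08 CPM in control females and at 8.91, 11.7, 11.5 and 8.24 CPM in EAE females, and 2 of 4 EAE libraries lay above every control. Its interval was 0.06 to 0.79 (edgeR adjusted p = 0.211, exact permutation p = 0.114).

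The other receptors differed less in females. Grm2 was at 56.3, 42.5, 56.9 and 57.1 CPM in control females and at 45.7, 74.4, 69.0 and 54.9 CPM in EAE females, a log2 difference of 0.20 with an interval of -0.16 to 0.55 (edgeR adjusted p = 0.517). Grm3 was at 48.2, 50.9, 61.7 and 43.1 CPM in control females and at 47.7, 55.9, 65.5 and 40.2 CPM in EAE females, and its difference of 0.04 had an interval of -0.28 to 0.35 (edgeR adjusted p = 0.911). Grm4 was at 44.0, 27.1, 40.5 and 30.8 CPM in control females and at 31.2, 34.1, 47.0 and 35.3 CPM in EAE females, and its difference of 0.05 had an interval of -0.27 to 0.37 (edgeR adjusted p = 0.873). The ranges of these 3 genes overlapped broadly. No receptor had every EAE female library above every control female library, a pattern shown by 3.99% of all genes tested.

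**Figure D4:**
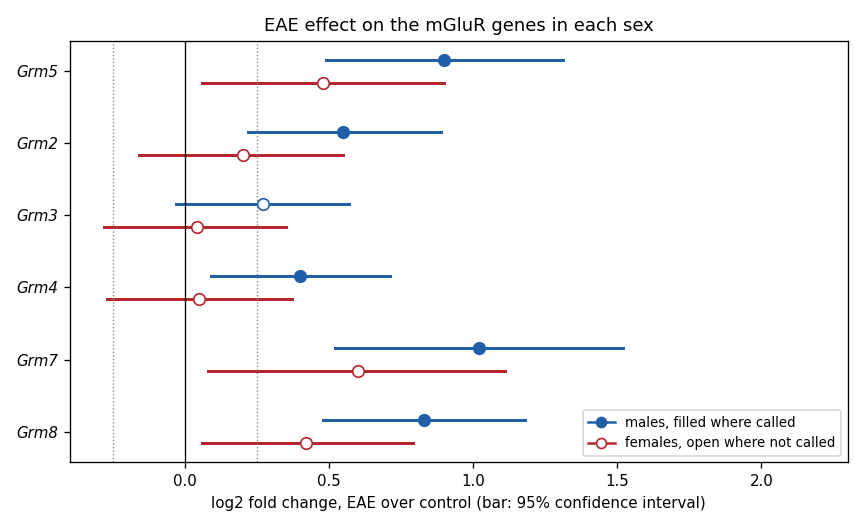
Log2 fold change of EAE over control with 95% confidence intervals for each receptor in males (blue) and females (red), filled where called, with dotted lines at 0.25 on either side of 0. The female values lie below the male values for 6 of 6 genes, from 0.04 to 0.60 against 0.27 to 1.02, and the intervals of both sexes overlap.

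Whether the EAE effect differed between the sexes was tested directly. No receptor was called, and of all genes tested 0% were called (933 genes, 4.19%, had an unadjusted p under 0.05, and the calls were 3 genes with DESeq2, 4 with the likelihood ratio test and 0 with limma voom, with no receptor among them). The difference, female effect minus male effect, was below 0 for 6 of 6 receptors, from -0.42 for Grm5 and Grm7 to -0.24 for Grm3 on the log2 scale. Its interval was -1.0 to 0.17 for Grm5, -0.84 to 0.13 for Grm2, -0.67 to 0.20 for Grm3, -0.79 to 0.10 for Grm4, -1.13 to 0.29 for Grm7 and -0.90 to 0.10 for Grm8 (edgeR adjusted p = 0.807 to 0.808, and 0 of 6 at an unadjusted p under 0.05). The smaller values in females were thus not shown to differ from those in males. Control females and control males also showed no receptor called, with 0.0674% of all genes called, 0 of 6 receptors at an unadjusted p under 0.05 against 4.7% of all genes, and log2 differences from 0.06 for Grm3 to 0.31 for Grm8 (edgeR adjusted p = 1). DESeq2, limma voom and the likelihood ratio test called 0 of the 6, and over all genes they called 57, 13 and 61.

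Ratios of counts within a library depend on no scaling between libraries. The pairs were chosen with the fold changes known, so they restate these without scaling and are given as a description. The ratio of Grm5 to Grm3 counts was 0.989 ± 0.0925 in control males (SD, n = 4, range 0.889 to 1.08) and 1.52 ± 0.0897 in EAE males (SD, n = 5, range 1.39 to 1.61), with no overlap. The ratio of Grm7 to Grm3 was 0.2 to 0.321 in control males and 0.44 to 0.495 in EAE males, also with no overlap. Between the group III receptors Grm8 and Grm4 the ratio went from 0.182 to 0.211 in control males to 0.243 to 0.314 in EAE males. In females the same ratios overlapped between groups, with Grm5 to Grm3 at 0.872 to 1.45 in controls and 1.11 to 1.71 in EAE, and Grm7 to Grm3 at 0.195 to 0.426 in controls and 0.337 to 0.524 in EAE. The ratio of Grm7 to Grm8 overlapped in males as well (1.74 to 2.87 in control and 2.48 to 2.68 in EAE). Grm3 has the shortest exon length of the 6, 3.05 kb, and with each library's length trend removed its log2 fold change in males lay nearer to that of Grm5, at 0.40 against 0.66, while those of Grm7 and Grm8 lay farther apart, at 0.95 against 0.60. Astrocytes also make Grm3, and summed astrocyte markers were 8273 to 11204 CPM in control males and 6302 to 7584 CPM in EAE males. Their part in the ratios to Grm3 was not tested.

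**Figure D5:**
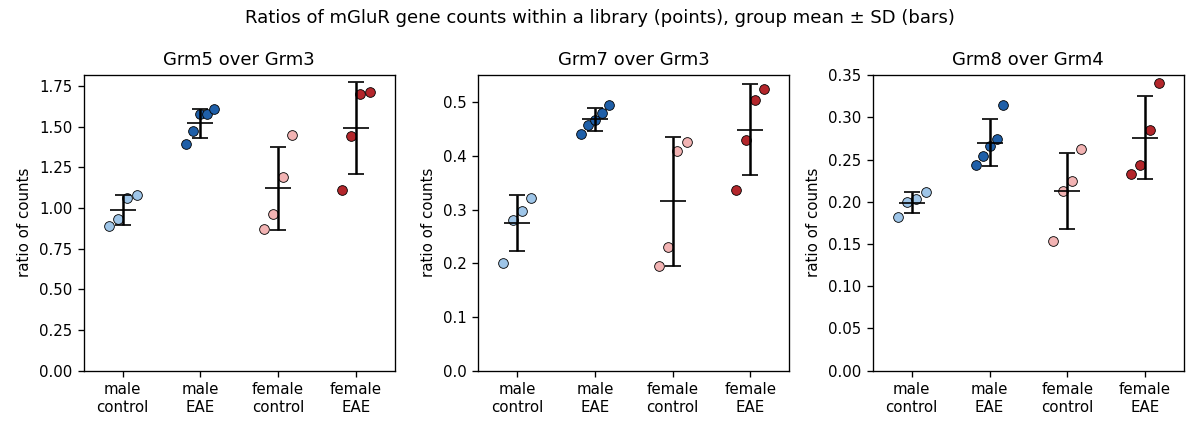
Ratio of the counts of a pair of receptor genes within each library (points), with group means and SD (black bars). In males the EAE ratios of Grm5 to Grm3, Grm7 to Grm3 and Grm8 to Grm4 lie above all control ratios, and in females they overlap.

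Across the 17 libraries, log2 CPM of the receptors rose and fell together to different degrees. The highest correlation was between Grm5 and Grm7 (r = 0.96) and the lowest was between Grm3 and Grm8 (r = 0.54), and after group means were removed these were 0.89 and 0.45. Among 13470 genes, the patterns most like Grm7 over the 17 libraries were those of Alg11 (r = 0.995), Gpr158 (0.993) and App (0.99). The patterns most like Grm5 were those of Fam126b (0.987), Ythdf3 (0.986) and Mier3 (0.982), and those most like Grm2 were Cntn3 (0.976), Atp2b2 (0.973) and Zfp354c (0.973). For Grm8 the named genes were Scn2b and Casd1 (both 0.966). Grm3 and Grm4 had no partner as close, with Il6st (0.919), Tnrc6b (0.916) and Asah1 (0.904) for Grm3 and Mbnl1 (0.904), Plppr4 (0.892) and Mest (0.892) for Grm4. These are descriptions over libraries that share their depth and the same main axis of variation.

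The genes that carry the receptors' signals were counted from lists by function, and the values in parentheses are the log2 fold change in males and its edgeR adjusted p. Over all genes tested in males, 19.2% were called higher and 39.6% in either direction, and the counts of each list are read against these shares. Of 14 genes of the Gq pathway used by Grm5, 8 were called higher and 1 lower in EAE males, with a median log2 fold change of 0.45. Those higher included Trpc1, a cation channel (1.36, 0.0105), the kinase gene Prkca (0.90, 0.00706) and the inositol trisphosphate receptor gene Itpr1 (0.85, 0.0128), and the gene lower was Gna11, a Gq class alpha subunit (-0.25, 0.0136). Of 21 genes of the Gi/o pathway used by the group II and group III receptors, 12 were higher and 3 lower, with a median of 0.39. The effector genes Adcy9 (1.26, 0.0108), an adenylyl cyclase, and Kcnj6 (1.26, 0.00608) and Kcnj3 (0.97, 0.00541), potassium channels opened by G protein beta-gamma subunits, were higher. The 3 genes called lower were the G protein subunit genes Gnai2 (-0.75, 0.00616), Gnb2 (-0.56, 0.00699) and Gng3 (-0.43, 0.0312). Some other G protein subunit genes of this list were called higher, by 0.37 to 0.45 on the log2 scale, so the called subunit genes went both ways. The remaining subunit genes of the list were not called, with log2 fold changes of -0.24 to 0.02.

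The 18 scaffold and binding partner genes included called genes in both directions in males, with 6 higher, 5 lower and a median of 0.18, against 19.2% higher and 39.6% in either direction over all genes (values in parentheses are again log2 fold changes with edgeR adjusted p). Homer1, which ties Grm5 to postsynaptic partners, was higher (0.54, 0.0256), Homer3 was lower (-0.82, 0.00541), and Homer2 was not called (0.21, 0.35). Frmpd4, which binds Homer and Grm5 (1.12, 0.00541), Shank1 (0.92, 0.0259) and Shank3 (0.71, 0.0474) were higher, and the PDZ protein gene Slc9a3r1 (-1.31, 0.00541) and Grasp (-0.47, 0.00659) were lower. Elfn1 and Elfn2, postsynaptic proteins that bind group III receptors across the synapse, were not called (0.21, 0.268 and 0.27, 0.193). Of 15 genes that switch off receptors or G proteins, 3 were higher and 2 lower, with a median of 0.06, shares close to those over all genes. The higher were Rgs8 (0.49, 0.0166), Rgs7 (0.45, 0.0557) and Rgs4 (0.32, 0.0379), and the lower were Arrb2 (-0.38, 0.026) and Calm3 (-0.27, 0.0341).

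Of 12 genes that load, clear or recycle glutamate, 6 were higher and 3 lower in EAE males, with a median of 0.33, against 19.2% higher and 39.6% in either direction over all genes (log2 fold changes and edgeR adjusted p in parentheses). The vesicular transporter gene Slc17a6 (0.84, 0.00541) and the glutamine transporter genes Slc38a1 (0.79, 0.00541) and Slc38a2 (0.71, 0.00936) were higher. Glul (-0.87, 0.00559), Slc38a3 (-0.54, 0.00635) and Slc1a3 (-0.37, 0.0193), which astrocytes use to clear glutamate and return it as glutamine, were lower. Slc1a3 and Slc1a2 are also in the list of 12 astrocyte markers, of which 8 were called lower. Slc1a2, the main astrocyte glutamate transporter, was not called (-0.09, 0.692), and neither was the cortical vesicular transporter gene Slc17a7 (0.14, 0.202). In females edgeR's quasi-likelihood test called 0 of the 80 genes in these 5 lists, with medians from 0.03 for scaffolds to 0.30 for glutamate handling, while 28 had an unadjusted p under 0.05 (19.8% of all genes did) and limma voom called 0. The likelihood ratio test called 7 of the 80, against 2.87% of all genes, and DESeq2 called 13, against 8.83% of the genes to which it gave an adjusted p.

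Marker lists of neurons and other cells were read beside the receptors in males, where 19.2% of all genes were called higher and 39.6% in either direction. Of 8 neuron markers 2 were higher and 1, Rbfox3, lower (-0.58 on the log2 scale), of 10 excitatory neuron markers 5 were higher, and of 11 interneuron markers 5 were higher and 4 lower. Of 12 oligodendrocyte markers 4 were higher and 2 lower, and of 8 endothelial and pericyte markers 3 were higher and 1 lower. Of the 9 microglia markers reported here edgeR's quasi-likelihood test called 0, as did DESeq2, limma voom and the likelihood ratio test, with 0 at an unadjusted p under 0.05, a median log2 fold change of 0.42 and summed levels of 38.5 to 43 CPM in control and 33.3 to 57.1 CPM in EAE males. Of 10 striatal neuron markers 4 were higher, of 9 cerebellar granule and thalamic markers 1 was higher and 2 were lower, and of 8 T and B cell markers tested 4 were higher. Summed excitatory markers were 3682 to 6781 CPM in control males and 5836 to 7553 in EAE males, and summed striatal markers were 914 to 1983 and 1051 to 2367 CPM. In females 1 gene of these lists was called higher, the immunoglobulin gene Igkc, named after its value was seen. Summed astrocyte markers in females were 5922 to 10275 CPM in controls and 5880 to 6711 CPM in EAE, with no marker of that list called. The part of these cell types in the receptor values was not tested.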

How the data were processed

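Neuronal RNA from 17 mice was sequenced by the study (KAPA stranded mRNA libraries, HiSeq3000, paired reads). Per the labels and methods, the authors demultiplexed with bcl2fastq 2.17, checked reads with FastQC, cleaned them with Trimmomatic, aligned them to mm10 with QuasR and deposited raw counts per gene. The QuasR version, annotation release and strand setting are not given in the sources used here. Groups came from the sample labels, and whether mice shared litters or days is not stated.

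From the counts, genes with fewer than 1 count in 9 or more of the 17 libraries were left out, as in the study, and 22242 genes were tested with edgeR 4.0.16 (R 4.3.3): TMM scaling, 1 mean per group, quasi-likelihood test, Benjamini-Hochberg adjustment over all genes. Called means an adjusted p under 0.1 and a log2 fold change beyond 0.25 either way. The script was tested on simulated data. Single genes were also compared by exact two-sided permutation of log2 CPM (prior count 2). The lists covered Gq and Gi/o signalling, scaffolds, switch-off, glutamate handling and markers of neuron types, glia, vessels and lymphocytes (1 microglia marker is not reported here); each receptor was named, with up to 3 called genes per list and direction and 8 genes named in any case. Members and lists were chosen with earlier results of these data known. Alternatives were DESeq2 1.42.0, limma 3.58.1 voom, edgeR's likelihood ratio test, other scalings and filters, each sex alone, a gene length offset, 1 surrogate variable (sva 3.50.0), a replicate block and leaving out libraries. The log2 fold changes and standard errors are those of the fit. Gene places and lengths came from GENCODE vM21, start regions from RefSeq.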

Additional observations from a re-analysis of the deposited data

Results flagged for a closer look

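Over the 24 sets of values examined (6 receptors in 4 groups), the lowest library lay far below the others of its group in 2, both for Grm2. In EAE males Grm2 was at 61.4 CPM in male 3 against 72.6 to 76.7 CPM in the other 4. In control females Grm2 was at 42.5 CPM in female 2 against 56.3 to 57.1 CPM in the other 3. Chance marks about 1 in 20 such sets, and the 24 sets are not independent because the 6 receptors were read in the same libraries. Male 3 was also the lowest EAE male for the other 5 receptors, and female control 2 was the lowest of its group for 5 of 6. Without female control 2 and male control 4 together, the log2 fold change of Grm2 in males was 0.44 (edgeR adjusted p = 0.0423).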

How the results depend on the processing

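The 5 calls in males held with DESeq2, limma voom, the likelihood ratio test, median-of-ratios scaling, no filter and each sex fitted alone. With 1 surrogate variable the number of receptors called in males was 0, with log2 fold changes of 0.23 (Grm5), 0.01 (Grm2), -0.06 (Grm3), -0.01 (Grm4), 0.12 (Grm7) and 0.30 (Grm8), and in females Grm2, Grm3 and Grm4 turned to -0.12, -0.17 and -0.17; the cause was not tested. Over all genes that fit called 7 genes in males against 8813. Grm3 was called in males with library size alone (0.35, edgeR adjusted p = 0.0792), with a mean log2 CPM above 1 (0.30, 0.0925) and with the gene length offset (0.40, 0.0618). Leaving out each library in turn gave 4 to 6 receptors called in males and 0 in the other comparisons. In females, the left-out values ran from -0.11 to 0.14 for Grm3, from -0.10 to 0.17 for Grm4, from 0.24 to 0.61 for Grm5, from 0.37 to 0.76 for Grm7 and from 0.32 to 0.59 for Grm8. Between control sexes they ran from -0.02 to 0.28 for Grm2 and from -0.04 to 0.16 for Grm3. Without male control 4 and female control 2 together, Grm4 in females was -0.06 and Grm3 between control sexes was -0.00.

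Mice with the same number were not shown to be paired. Over 7 same-numbered pairs the correlation of deviations ran from -0.57 to 0.53, and 2 of 7 correlated best with their own number. With the replicate block 4 receptors were called in males (Grm4 at 0.40, edgeR adjusted p = 0.13), Grm4 in females was -0.05, and the calls over all genes went from 8813 to 7152 in males and from 13 to 4 in females.

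Counts of called genes in females depended on the tool and libraries, with 13 in the reported analysis, 1354 with DESeq2, 639 with the likelihood ratio test, 0 with limma voom, 1 with a mean log2 CPM above 1, 28 with no filter, 23 with library size alone, 21 with the length offset, 36 with females fitted alone, 60 with 1 surrogate variable, 0 without both doubted controls and 0 to 177 when 1 library was left out, the highest without female control 1. In males, leaving out 1 library gave 5895 (without male control 4) to 9748 calls. Between control sexes the count was 15, against 57 with DESeq2, 61 with the likelihood ratio test and 50 with 1 surrogate variable. Levels per kb of the longest transcript were 7.14 for Grm4, 6.51 for Grm5, 3.47 for Grm7 and 1.41 for Grm8. Every receptor had at least 376 counts in each library. Each library came from 1 mouse, so spread between mice and spread from pull-down or library preparation cannot be told apart.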
